A study of Homo sapiens with 8 samples.

Results

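The super elongation complex joins the kinase P-TEFb, of which CDK9 is the catalytic subunit, to factors that speed RNA polymerase II along a gene. The genes described here encode its other parts. They were taken as a fixed list of 10: the scaffolds AFF1, AFF3 and AFF4, the elongation factors ELL, ELL2 and ELL3, the chromatin readers MLLT1 and MLLT3, and the ELL partners EAF1 and EAF2. All 10 were among the 18417 genes measured, with 11 probe sets in all, since ELL2 had 2. No filter on low values was applied.

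The cells were U2OS, a human osteosarcoma line, grown in DMEM with serum. One group received siRNA against CDK9 and the other a non-targeting siRNA, both at 10 nM, and RNA was taken 72 h later. Each group had 4 cultures, described as biological replicates, with 1 Affymetrix array per culture. Whether the CDK9 siRNA was a single sequence or a pool was not stated in the labels, so effects of the siRNA on other transcripts cannot be told apart from effects of losing CDK9.

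As background, an AFF protein holds the complex together: P-TEFb, an ELL protein and MLLT1 or MLLT3 bind along it. The YEATS domains of MLLT1 (also called ENL) and MLLT3 (AF9) bind acylated histones and bring the complex to chromatin. Several of these genes were first known as fusion partners of KMT2A (MLL) in acute leukaemia. The complex is best known for the rapid induction of genes such as those of the serum and heat shock responses.

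Values are the log2 signals of the deposited table. Replicate 1 of both groups lay on a lower scale (medians 5.85 with CDK9 siRNA and 5.804 with control siRNA) than replicates 2 to 4 (6.99 to 7.04). The replicate 1 pair is called array set 1 and the other 6 arrays array set 2. The set entered the limma fit as a block, and the threshold for a call was 0.05 after Benjamini-Hochberg adjustment across the whole table. CDK9 itself was left at 28.4% of its control signal (log2 difference -1.82 ± 0.05 SE, n = 4 per group, limma adjusted p = 2.17e-07). Its difference lay between -1.83 and -1.81 in all 4 same-numbered pairs. Of 8 osteoblast lineage markers measured, 2 were dim, meaning that their mean signal was in the lowest 30% of genes. RUNX2, the osteoblast transcription factor, and COL1A1, a bone collagen, were not dim, and both fell (-0.60 and -0.51), while SPP1 (osteopontin) rose by 1.497. The other 5 osteoblast markers were not called. Over all genes 14.2% were called. Of 6 markers of blood, endothelium and epithelium 5 were dim. The exception was the keratin KRT8, with a mean log2 signal of 12.6. EPCAM, a dim epithelial marker, was called higher (0.32, adjusted p = 0.0366), but not when pairs were blocked by replicate number (0.0841), nor when any of 5 arrays was left out (replicates 2 to 4 with CDK9 siRNA, 3 and 4 with control siRNA, 0.0540 to 0.106). The part of cell composition in the results was not tested.

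MLLT1 and ELL2 fell, and the differences of the other 8 members did not pass the test. The calls made up 20% of the members, against 7.47% of all genes called lower. With 10 genes this share was not tested against that background. In limma 0 members were called higher, against 6.73% of all genes called higher. At an unadjusted p under 0.05, 0 members were higher and 4 were lower: MLLT1, ELL2, AFF1 and AFF3. The share of all genes at the unadjusted threshold was not computed, here or below, so such counts have no background. Blocking by replicate number gave the same 2 calls and 0 higher, where 4.75% of all genes were lower and 4.41% higher. In array set 2 alone AFF1 joined them and 0 were higher, against 8.57% and 9.52% of all genes. The median log2 difference of the members was -0.12 and that of all genes was -0.002, and 7 of the 10 were negative, against 9299 of 18417 genes. The signals are relative to the rest of each array, so a change shared by most transcripts would not show in them. All rises, falls and percentages of control are on that relative scale. Each array measured a whole culture, so fewer cells making a transcript and less of it per cell cannot be told apart.

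**Figure D1:**
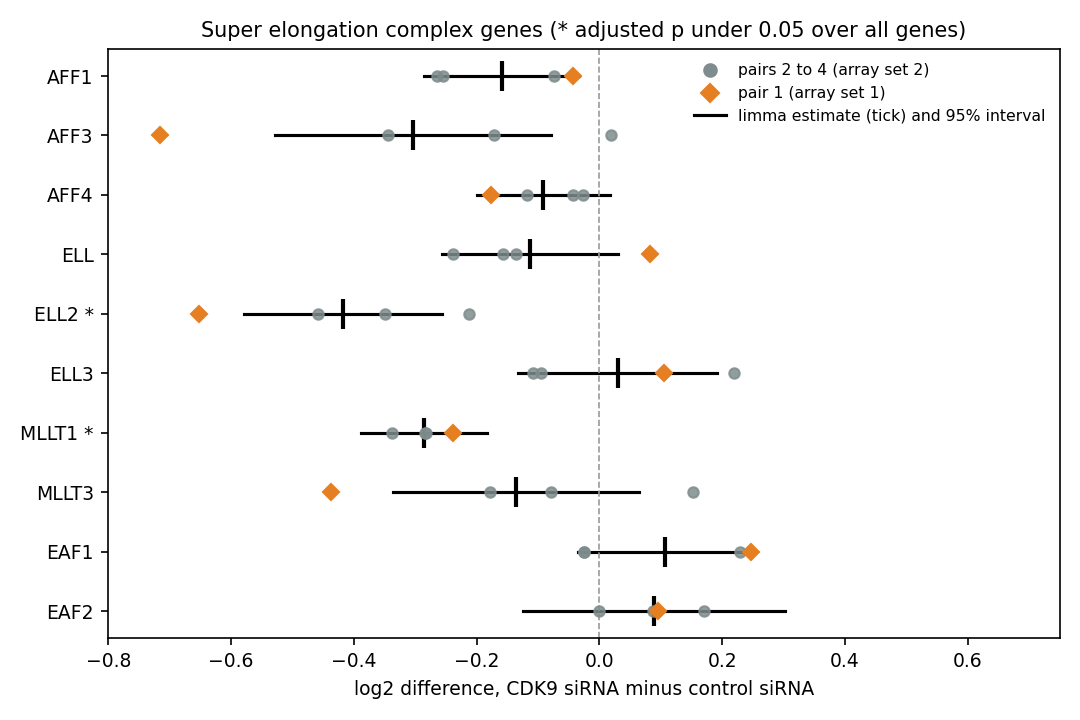
Log2 difference, CDK9 siRNA minus control siRNA, of the 10 members, with circles for the same-numbered pairs 2 to 4, diamonds for pair 1, ticks for limma estimates and lines for 95% intervals. The intervals of ELL2 and MLLT1 lie well below 0, those of AFF1 and AFF3 end just below it, and the other 6 cross it.

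MLLT1, a YEATS-domain reader, gave the steadiest difference of the members. Its signals were 7.59, 8.78, 8.75 and 8.77 in the CDK9 siRNA cultures, in replicate order, against 7.83, 9.07, 9.09 and 9.05 in the control cultures. In array set 2 the groups were clear of each other, and the array set 1 pair differed the same way. The estimate was a log2 difference of -0.29 ± 0.05 (SE, n = 4 per group, limma adjusted p = 0.00401), or 82.0% of the control level with a 95% interval of 76.4 to 88.1%. The 4 same-numbered pairs gave -0.24, -0.28, -0.34 and -0.28, with an SD of 0.04, the smallest of the 10 members. Over all genes, 4.68% had a difference as low or lower, so the fall was small in size but even across cultures.

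MLLT3, its paralogue, varied more between pairs than the groups differed. Its signals were 5.58, 6.98, 6.75 and 6.95 in the CDK9 siRNA cultures, against 6.01, 6.82, 6.93 and 7.02 in the control cultures. The groups overlapped in array set 2, and the pair differences were -0.44, 0.15, -0.18 and -0.08. The estimate was -0.14 ± 0.09 (SE, n = 4 per group, limma adjusted p = 0.372), with a 95% interval of 79.2 to 105% of the control signal. Without replicate 1 of either group it was -0.035, so array set 1 carried most of it. The interval over all arrays also holds the size of the MLLT1 fall.

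A call for MLLT1 and not for MLLT3 does not show that they changed unequally. The sequences before the transcription start of this pair of genes are shown because 1 of the 2 paralogues was called and the other was not. They are the 250 bases upstream of the RefSeq start in GRCh38.p14, both on the minus strand, for MLLT1 at chr19:6279976-6280225 and for MLLT3 at chr9:20622500-20622749. Capitals mark the CCAAT box, searched as CCAAT or ATTGG on either strand.
MLLT1: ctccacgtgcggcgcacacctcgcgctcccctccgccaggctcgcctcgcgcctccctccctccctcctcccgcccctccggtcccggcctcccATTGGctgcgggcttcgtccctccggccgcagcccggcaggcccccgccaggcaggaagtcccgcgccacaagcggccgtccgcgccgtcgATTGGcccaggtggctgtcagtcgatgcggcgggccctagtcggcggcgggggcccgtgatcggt
MLLT3: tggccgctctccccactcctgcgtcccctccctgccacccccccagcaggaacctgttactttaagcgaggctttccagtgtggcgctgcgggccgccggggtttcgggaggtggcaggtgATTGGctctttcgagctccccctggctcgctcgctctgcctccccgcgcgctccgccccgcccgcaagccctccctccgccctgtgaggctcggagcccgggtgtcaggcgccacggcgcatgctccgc
MLLT1 had 2 matches and MLLT3 had 1. Both windows were rich in G and C, at 77.2% and 72.0%, against a median of 58.0% over all 35116 promoter windows of the same length in the table. A CCAAT box was present in 6 of the 11 windows of the 9 members found in that table (AFF1 and AFF3 had 2 windows each) and in 32% of all windows. The GC box (GGGCGG or CCGCCC) was present in 8 of the 11 member windows and in 42.6% of all. The TATA box (TATAAA or TTTATA) was in 0 of the 11 and 10.7% of all, and the AP-1 site (TGANTCA, its own reverse complement) in 0 of the 11 and 6.57% of all. The E box (CACGTG) was in 2 of the 11, those of MLLT1 and AFF4, and 6.34% of all, and the ETS core (CCGGAAGT or ACTTCCGG) in 1 of the 11, that of EAF1, and 3.42% of all. Motifs were counted separately, so a base may belong to more than 1 match, and these counts describe letters in the windows only.

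ELL2, an elongation factor that suppresses pausing of RNA polymerase II, had the largest fall of the members. Of its 2 probe sets, the one with the higher mean signal (7921344) read 8.17, 9.22, 9.16 and 9.18 in the CDK9 siRNA cultures, against 8.82, 9.44, 9.51 and 9.64 in the control cultures. In array set 2 every CDK9 siRNA culture lay below every control culture, and the set 1 pair was lower too. The estimate was -0.42 ± 0.07 (SE, n = 4 per group, limma adjusted p = 0.00552), or 74.8% of the control level with a 95% interval of 66.9 to 83.7%. Pair by pair it was -0.65, -0.21, -0.35 and -0.46. Of all genes, 1.86% had a difference as low or lower.

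The other ELL2 probe set (8113220) gave a tighter result. It read 8.45, 9.003, 8.96 and 9.08 in the CDK9 siRNA cultures, against 8.99, 9.45, 9.45 and 9.55 in the control cultures. The groups were again clear of each other in array set 2, and the pair differences of -0.55, -0.45, -0.49 and -0.46 had an SD of 0.04, against 0.19 for the first probe set. With every single-symbol probe set in 1 fit, its log2 difference was -0.49 ± 0.05 (SE, n = 4 per group, limma adjusted p = 0.000721), or 71.4% of the control level with a 95% interval of 65.7 to 77.5%.

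The 2 ELL2 probe sets may not read the same locus. Probe set numbers on this array follow the genome: for each of the other 9 members, every neighbouring probe set whose gene had a RefSeq entry lay on the member's own chromosome. The same held for 8113220, whose 10 nearest annotated neighbours in number, GLRX and ERAP1 among them, were all on chromosome 5, where RefSeq places ELL2. The 10 neighbours of 7921344, between CD5L and CD1B, were all on chromosome 1. RefSeq lists 4 pseudogenes of ELL2, and 1 of these, ELL2P1, lies on chromosome 1 with SMIM42 and CD1D as its nearest protein-coding neighbours. The platform annotation names ELL2 for both probe sets. A near-identical copy can share signal with its parent gene, so the value of 7921344 is uncertain as a measure of ELL2, and that of 8113220, among the neighbours of the gene itself, gave the same call.

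**Figure D2:**
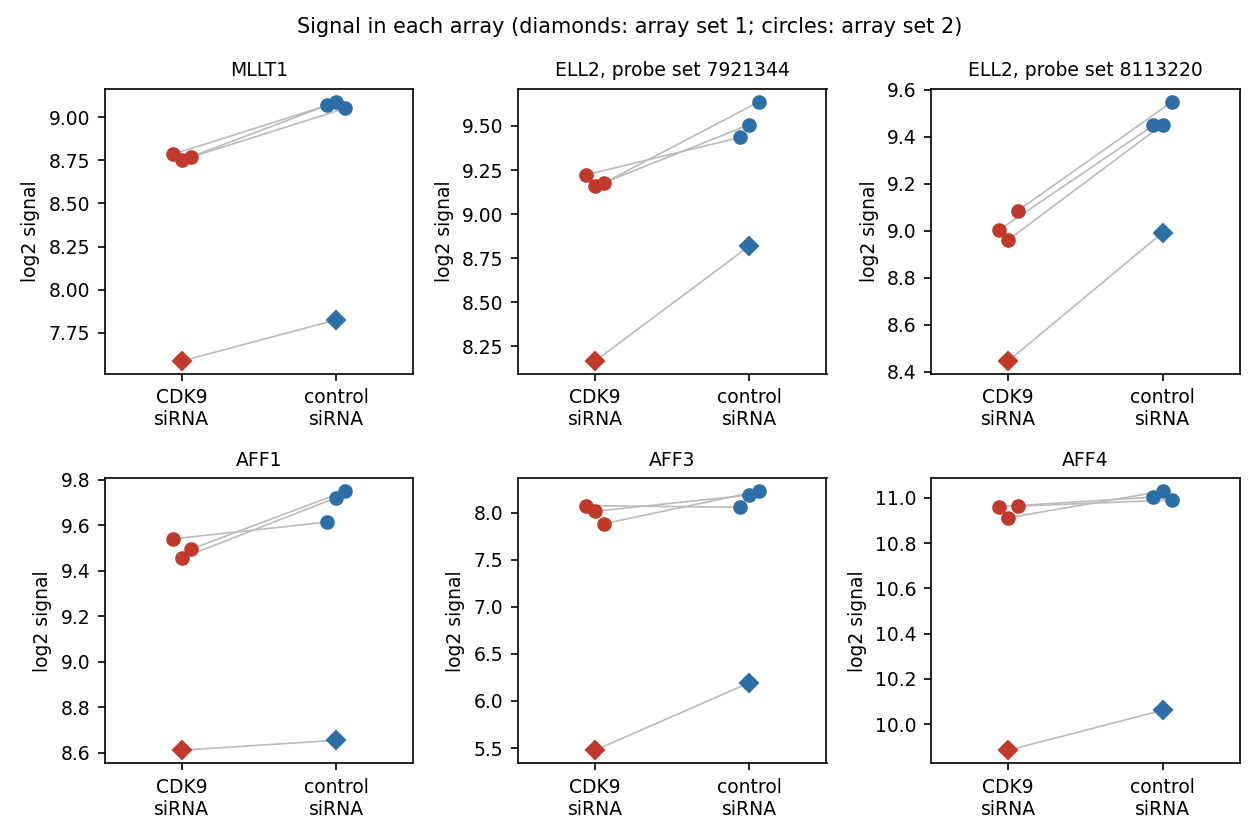
Log2 signal of 6 probe sets in each array, with CDK9 siRNA cultures on the left of each panel and control siRNA cultures on the right (diamonds array set 1, circles array set 2, grey lines joining same-numbered cultures, vertical scales differing between panels). MLLT1 and both ELL2 probe sets separate the groups in array set 2, AFF1 and AFF4 do so by less, and AFF3 overlaps.

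ELL, the founding member of its family, gave opposite signs in the array sets. It read 6.60, 7.45, 7.41 and 7.39 in the CDK9 siRNA cultures, against 6.52, 7.69, 7.55 and 7.55 in the control cultures. The 3 pairs of array set 2 gave -0.24, -0.14 and -0.16 without overlap of the groups, and the pair of array set 1 gave 0.08. The estimate was -0.11 ± 0.06 (SE, n = 4 per group), and it did not pass with both sets (limma adjusted p = 0.294) or in array set 2 alone (-0.18, adjusted p = 0.0641). Without control replicate 2 it was -0.069.

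ELL3, the third elongation factor of the family, was dim. Its signals were 4.82, 5.58, 5.56 and 5.61 in the CDK9 siRNA cultures, against 4.71, 5.69, 5.66 and 5.39 in the control cultures. The groups overlapped, with 2 pairs lower and 2 higher. The difference was 0.03 ± 0.07 (SE, n = 4 per group, limma adjusted p = 0.837), with an interval of 91.2 to 114% of the control signal. Leaving out 1 array gave 0.0051 (replicate 1 of either group) to 0.073 (control replicate 2), and -0.033 without control replicate 4.

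The AFF scaffolds gave negative estimates, and none of the 3 was called in limma with both array sets. AFF1 read 8.61, 9.54, 9.46 and 9.495 in the CDK9 siRNA cultures, against 8.65, 9.61, 9.72 and 9.75 in the control cultures. It was lower in all 4 pairs, without overlap in array set 2, by 0.04 in pair 1 and by 0.07, 0.27 and 0.25 in pairs 2 to 4. The estimate was -0.16 ± 0.06 (SE, n = 4 per group, limma adjusted p = 0.0957), or 89.5% of the control signal. It passed without CDK9 siRNA replicate 1 or without control replicate 1, both of which come to array set 2 alone (-0.20, adjusted p = 0.0447). It also passed with a prior variance that follows the signal level (adjusted p = 0.0407).

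AFF3, whose expression is best known from lymphoid cells, varied most between pairs. It read 5.48, 8.08, 8.01 and 7.88 in the CDK9 siRNA cultures, against 6.19, 8.06, 8.19 and 8.23 in the control cultures. Relative to its array's median it stood at -0.37 and 0.39 in the CDK9 siRNA and control arrays of set 1, and between 0.88 and 1.19 in set 2. The pair differences were -0.72, 0.02, -0.17 and -0.34, with an SD of 0.31, and the groups overlapped in array set 2. The estimate was -0.30 ± 0.10 (SE, n = 4 per group, limma adjusted p = 0.0771), with a 95% interval of 69.3 to 94.7% of the control signal. It passed with a prior variance that follows the signal level (adjusted p = 0.0420), while in array set 2 alone the difference was -0.17 (adjusted p = 0.149).

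AFF4, a scaffold of the complex in many human cell types, had the narrowest interval of the 3. It read 9.89, 10.96, 10.91 and 10.96 in the CDK9 siRNA cultures, against 10.06, 11.004, 11.03 and 10.99 in the control cultures. Every pair was lower, and array set 2 showed no overlap, but the size was -0.09 ± 0.05 (SE, n = 4 per group, limma adjusted p = 0.260). The interval of 87.1 to 101% of the control signal leaves out the MLLT1 estimate of 82.0%. It overlaps the MLLT1 interval of 76.4 to 88.1%, and these genes were not compared with each other.

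EAF1 and EAF2 bind ELL proteins and strengthen their activity. EAF1 read 7.90, 8.82, 8.86 and 8.97 in the CDK9 siRNA cultures, against 7.65, 8.84, 8.88 and 8.74 in the control cultures. Pairs 1 and 4 were higher by 0.25 and 0.23, pairs 2 and 3 both differed by -0.03, and the groups overlapped. The estimate was 0.11 ± 0.06 (SE, n = 4 per group, limma adjusted p = 0.314), and 0.059 without replicate 1 of either group.

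EAF2, a dim gene, read 4.81, 6.07, 6.05 and 5.83 in the CDK9 siRNA cultures, against 4.71, 6.07, 5.96 and 5.66 in the control cultures. It was higher in 3 pairs and the same in pair 2, with overlap of the groups. The estimate was 0.09 ± 0.09 (SE, n = 4 per group, limma adjusted p = 0.610), with an interval of 91.7 to 123% of the control signal. It was 0.0038 without control replicate 4, 0.15 without control replicate 2, 0.14 without CDK9 siRNA replicate 4 and 0.057 without CDK9 siRNA replicate 2.

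Counted over the members, 4 (AFF1, AFF4, ELL2 and MLLT1) were lower in array set 2 without overlap of the groups and lower in array set 1. Of all genes 13.8% met that rule. The same 4 were lower in all 4 pairs, as were 17.6% of all genes, and 0 members were higher in all 4 pairs, against 15.4% of all genes. Higher in both sets without overlap in set 2 were 0 members, against 11.5% of all genes. A group difference that differed between the array sets was tested with an interaction term. In limma 0 members passed after adjustment, as against 2.14% of all genes. At an unadjusted p under 0.05 there were 4: AFF3, MLLT3, ELL2 and ELL. The share of all genes at that threshold was not computed, so this count has no background. AFF3 had the smallest (array set 1 minus array set 2 -0.55, adjusted p = 0.0891). The single pair of array set 1 has no spread of its own, so this test borrows that of set 2.

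**Figure D3:**
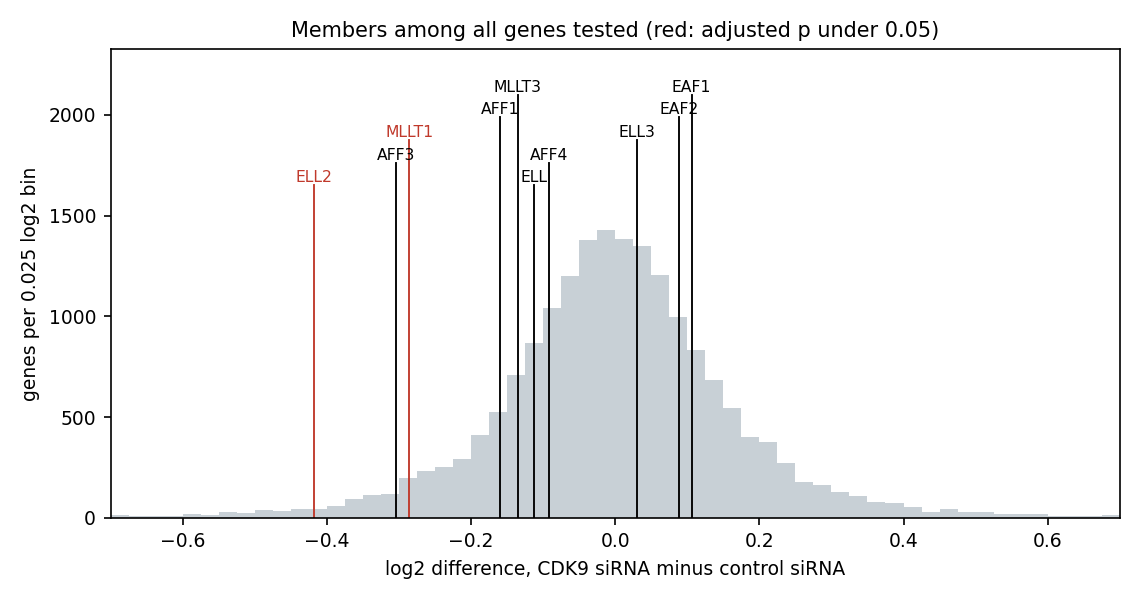
Histogram of the log2 difference, CDK9 siRNA minus control siRNA, over the genes tested, drawn between -0.7 and 0.7 in bins of 0.025, with the 10 members marked. ELL2 (-0.42) and MLLT1 (-0.29), in red, lie in the lower tail, AFF3 (-0.30) lies beside MLLT1 but was not called, and the other members lie between -0.16 and 0.11.

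Whether paralogues changed unequally was asked of their ratio within each array, which removes an offset between arrays but not a difference in slope. The log2 ratio of AFF1 to AFF3, for one, was 3.13 and 2.46 in the CDK9 siRNA and control arrays of set 1, and 1.44 to 1.61 in set 2. Groups were therefore compared within array sets, by an exact two-sided permutation test over 40 arrangements. The smallest p that it can give is 0.05 (0.1 in array set 2 alone), so no pair can pass under 0.05, and p-values were not adjusted further. Of the 8 pairs computed, the 3 that include ELL3 or EAF2 are given but not read further, because those genes are dim. ELL2 (probe set 7921344) over ELL3 differed by -0.45 (exact p = 0.05) and ELL over ELL3 by -0.14 (exact p = 0.05). EAF1 over EAF2 differed by 0.02 (exact p = 0.85).

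ELL2 over ELL differed by -0.31 with probe set 7921344, lower in 3 of 4 pairs (exact p = 0.15), and by -0.16 without replicate 1 of either group. With probe set 8113220 the difference was -0.37, lower in 4 of 4 pairs (exact p = 0.05). For the readers, MLLT1 over MLLT3 differed by -0.15 (exact p = 0.20), with pair differences of 0.20, -0.44, -0.16 and -0.20. In array set 2 alone, which is what remains without replicate 1 of either group, that ratio was -0.27 (exact p = 0.1), and without control replicate 2 it was -0.093. An unequal change of these 2 paralogues was not shown.

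Among the scaffolds, AFF3 over AFF4 differed by -0.21 (exact p = 0.20), and by -0.10 in array set 2 alone. AFF1 over AFF4 differed by -0.07 (exact p = 0.30), by -0.14 in array set 2 alone and by -0.031 without control replicate 4. AFF1 over AFF3 differed by 0.14 (exact p = 0.80) and by -0.03 in array set 2 alone, so its sign was not stable.

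**Figure D4:**
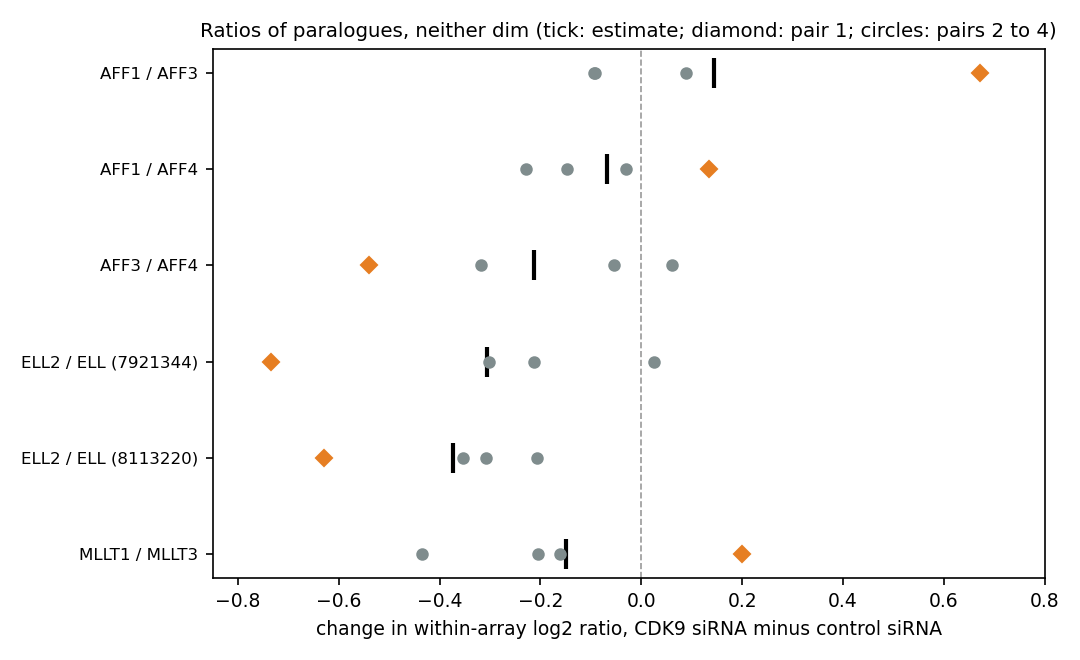
Change in the within-array log2 ratio of paralogues of which neither is dim, CDK9 siRNA minus control siRNA, with ticks for the estimates over 8 arrays, diamonds for pair 1 and circles for pairs 2 to 4. All 4 pairs lie below 0 for ELL2 over ELL with probe set 8113220, and the other ratios have pairs on both sides.

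The genes whose pattern was most like that of the called members were listed by Pearson's r over the 8 arrays, after the mean of each array set was subtracted. For ELL2 (probe set 7921344) these were SDK1 (r = 0.996), WTIP (0.994), MAP3K12 (0.991), MEPCE (0.991) and ZBTB33 (0.991). For MLLT1 they were SEC61A1 (r = 0.999), COL5A2 (0.999), ERV3-1 (0.999), CCN3 (0.998) and COL3A1 (0.997). Chosen for likeness to genes called lower, all 10 were lower too, so their own calls are no separate result. Their log2 differences ran from -0.19 for WTIP to -1.30 for COL5A2. The 8 values share the group difference and the arrays, so a high r describes a like split of the groups and no more.

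AFF2, the remaining paralogue of the scaffold family and not among the 10, also fell. It read 5.70, 7.36, 7.48 and 7.47 in the CDK9 siRNA cultures, against 6.30, 7.68, 7.75 and 7.70 in the control cultures. All 4 pairs were lower and array set 2 showed no overlap, with a log2 difference of -0.36 ± 0.07 (SE, n = 4 per group, limma adjusted p = 0.00923). Its call held without any 1 array. In the same list are the subunits of the little elongation complex, which shares ELL proteins and acts at small nuclear RNA genes. Of these ZC3H8 rose by 0.24 (adjusted p = 0.0184), while ICE1 (-0.06) and ICE2 (-0.03) did not pass. ZC3H8 was not called once CDK9 siRNA replicate 3 was left out (adjusted p = 0.0558), nor once control replicate 2 (0.0606) or 3 (0.0522) was. In that list of 4, 1 rose and 1 fell, with a median of -0.04. Over all genes 7.47% were called lower and 6.73% higher, 14.2% in all, and none of the small lists of partner genes was tested against these shares.

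Among 7 measured P-TEFb and 7SK genes, of which CDK9 is the siRNA target, 1 rose (CCNT2, 0.26, a cyclin partner of CDK9) and 3 fell: CDK9, HEXIM1 (-0.45, an inhibitor of P-TEFb) and MEPCE (-0.30, the 7SK capping enzyme). CCNT1, the main cyclin partner of CDK9, differed by 0.15 (adjusted p = 0.0731). The median of the 7 was -0.12, and -0.09 without CDK9. The HEXIM1 difference was -0.95 for the set 1 pair and -0.29 over set 2, as it was without replicate 1 of either group (interaction adjusted p = 0.0274). It was not called when blocked by replicate number (adjusted p = 0.0589) or without CDK9 siRNA replicate 3 (adjusted p = 0.0551).

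Of 6 PAF1 complex genes, which tie the super elongation complex to the polymerase, 0 were called (median -0.01), and 1, SKIC8 (0.16), was higher at an unadjusted p under 0.05. PAF1 differed by -0.03 (0.02 in array set 2 alone). Of 5 DSIF and NELF genes 0 were called, also at an unadjusted p under 0.05 (median -0.07). Of 6 genes for DOT1L, its partners, KMT2A and its cofactors, MEN1 (menin) fell by 0.20 (adjusted p = 0.0208, median of the list -0.11). The histone methyltransferase DOT1L differed by -0.18 (adjusted p = 0.0956), and in array set 2 alone, which is also what remains without replicate 1 of either group, it passed (-0.26, adjusted p = 0.00902). KMT2A differed by -0.02, but by 0.03 without CDK9 siRNA replicate 3 and 0.02 without control replicate 4. MEN1 was not called when blocked by replicate number (adjusted p = 0.0660), without CDK9 siRNA replicate 3 (0.0640), or without control replicate 2 (0.0625), 3 (0.0772) or 4 (0.0599).

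The 2 other YEATS-domain genes measured went opposite ways, with a median of 0.05. YEATS2 fell by 0.23 (adjusted p = 0.0148) and YEATS4 rose by 0.33 (adjusted p = 0.0246). Blocking by replicate number ended both calls (adjusted p = 0.0538 for YEATS2 and 0.0657 for YEATS4). YEATS2 also lost its call without control replicate 3 (0.0595), and YEATS4 on removal of any of 5 arrays (replicates 3 and 4 with CDK9 siRNA, 2 to 4 with control siRNA, 0.0535 to 0.0797). The ubiquitin ligase SIAH1, which marks ELL2 protein for degradation, differed by -0.01 (adjusted p = 0.908) and SIAH2 by 0.04, so 0 of these 2 were called in limma, also at an unadjusted p under 0.05 (median 0.01).

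**Figure D5:**
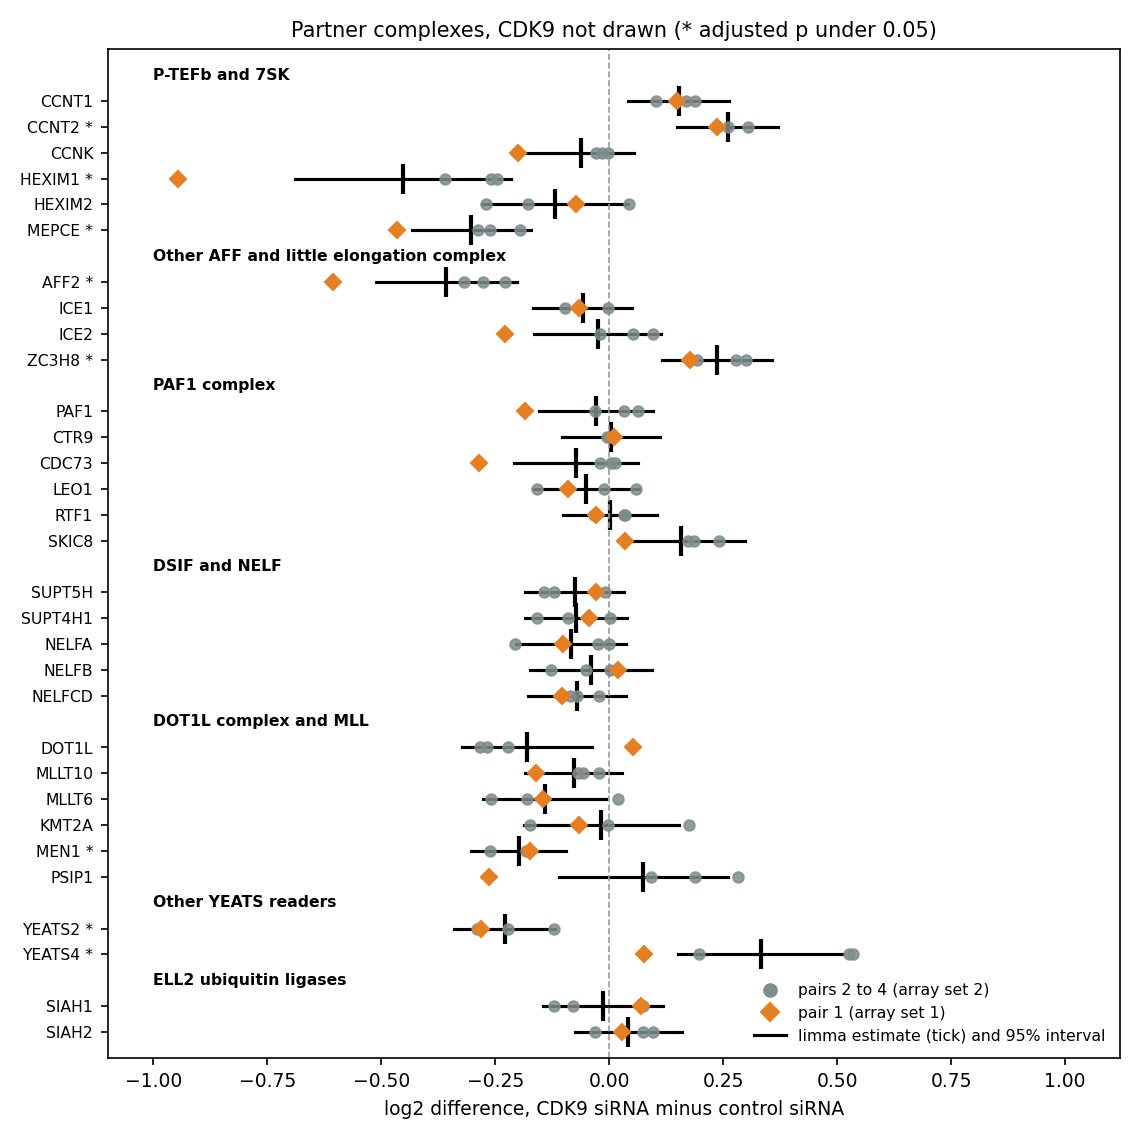
Log2 difference, CDK9 siRNA minus control siRNA, of the measured genes of 7 lists of partner genes (CDK9 not drawn), with circles for pairs 2 to 4, diamonds for pair 1, ticks for limma estimates and lines for 95% intervals. Of the called genes, marked by asterisks, CCNT2, ZC3H8 and YEATS4 lie above 0, and HEXIM1, MEPCE, AFF2, MEN1 and YEATS2 below it.

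Of 12 measured genes known to need the complex for rapid induction or in KMT2A fusion leukaemia, 6 fell and 1 rose, with a median of -0.27, where 7.47% of all genes were called lower and 6.73% higher. The falls were the AP-1 genes FOS (-1.41) and JUN (-0.52), the growth response gene EGR1 (-0.95), IER2 (-0.35), IER3 (-0.35) and the heat shock co-chaperone DNAJB1 (-0.28). The transcription factor gene MYC rose by 0.42. The other 5 did not pass: JUNB (-0.13), MEIS1 (-0.26), ATF3 (0.02), HSPH1 (0.02) and the dim EGR3 (-0.0033). The FOS difference was -0.67 for the set 1 pair and -1.66 over set 2 (interaction adjusted p = 0.0355). By array set, the median was -0.03 (set 1) and -0.25 (set 2). Blocking by replicate number ended the calls of IER2 (adjusted p = 0.0589) and DNAJB1 (0.0571). IER2 also lost it without any 1 of replicates 2 to 4 of either group (0.0550 to 0.0700), and DNAJB1 on removal of CDK9 siRNA replicate 3 or any of control replicates 2 to 4 (0.0552 to 0.0655).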

How the data were processed

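RNA of 8 U2OS cultures was measured on 8 arrays. The table deposited by the authors holds log2 values of 33297 probe sets. The notes of the submitters name Affymetrix Expression Console 1.1 with RMA, the build hg19 and limma, without roles, and do not say which arrays were normalized together. By the platform annotation 19460 probe sets had 1 symbol, 1754 had several and 12083 had none. The probe set with the highest mean was kept per gene (18417 genes). The test was lmFit and eBayes of limma 3.58.1 (R 4.3.3), two-sided, with Benjamini-Hochberg adjustment and the array set as a block. Set 1 was separated by a gap in the numbers of the sample descriptions. The fit was run on simulated data with independent noise between arrays. The condition for passing that run covered only changes much larger than those of MLLT1 and ELL2. Passing it therefore says nothing of their calls. Recovery at smaller sizes of change is not given here. Tables used pandas 2.3.3 and numpy 2.4.6 in Python 3.11.15, and plots matplotlib 3.10.9.

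Same-numbered arrays deviated together from their group means (r = 0.822, 0.537, 0.494 and 0.607 across genes), above the limit of 0.1. Each group mean spans both array sets, so the difference between the sets enters every r. Differently numbered arrays of the same set share that difference, and no r is given for them. These r therefore cannot decide whether the numbers of the titles mark pairs, and treating them as pairs remains an assumption. No array pair was mostly identical. The number of arrays limits the precision.

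The members, lists and tests were chosen with earlier results of these data known. Named are the members, CDK9, called genes of the lists, 6 other list genes (AFF2, CCNT1, KMT2A, DOT1L, PAF1, SIAH1) and the 5 genes most like each called member; ICE1, ICE2, SIAH2, SKIC8, KRT8, JUNB, MEIS1, ATF3, HSPH1 and EGR3 were named after their values were seen. Promoter sequences are from RefSeq (GRCh38.p14), upstream bases only. Alternatives were no block, the replicate block, array set 2 alone, 2 scalings, the mean of probe sets, no dim genes, a trended prior and leaving out each array.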

Additional observations from a re-analysis of the deposited data

Results flagged for a closer look

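For the 10 members and CDK9, each group's 4 values relative to the array median, and the 4 pair differences, were tested for a single value far from the others (33 sets of 4). In 5 sets its gap to the nearest other, as a share of the range, exceeded Dixon's critical value for 4 values, and in each it was replicate 1 of the CDK9 siRNA group, the array of array set 1. Chance flags about 1 set in 20 where the 4 values share 1 scale and the sets are independent. Neither held here, so that rate is no yardstick for these flags. AFF3 stood at -0.37 in replicate 1, against 1.05, 1.03 and 0.88 in replicates 2 to 4 (gap 0.880 of the range). The other 4 stood higher in replicate 1: AFF1 at 2.76 against 2.51, 2.47 and 2.49 (0.859), ELL at 0.75 against 0.42, 0.43 and 0.38 (0.880), ELL2 at 2.32 against 2.19, 2.17 and 2.17 (0.843), and ELL3 at -1.03 against -1.45, -1.42 and -1.40 (0.887). These arrays were on a different scale as deposited. The part of that scale in these values was not tested.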

How the results depend on the processing

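With the replicate block, MLLT1 and ELL2 kept their calls (adjusted p = 0.0218 for each), while the counts over all genes were 875 lower and 813 higher, against 1376 and 1239 with the array set as a block. The replicate block changed the calls of 7 associated genes, named above, and of no member. Without a block 0 members, 0 lower and 0 higher genes were called and CDK9 was not (-1.82, adjusted p = 1), because the difference between array sets enters the residual. With a trended prior 4 members were called lower, where over all genes 1746 were lower and 1581 higher. In array set 2 alone 3 members were called lower, where over all genes 1578 were lower and 1753 higher. Leaving out 1 array at a time gave 2 to 3 members called lower and 0 higher, 806 to 1578 genes lower and 714 to 1753 higher, CDK9 -1.83 to -1.81, MLLT1 -0.30 to -0.28 (adjusted p 0.00424 to 0.0207) and ELL2 -0.46 to -0.34 (0.00764 to 0.0219). The arrays whose removal moved a count over all genes by more than 1.5 times were CDK9 siRNA replicate 3 (883 lower, 771 higher) and control replicates 2 (796 higher), 3 (806 lower, 714 higher) and 4 (871 lower, 814 higher). MLLT1 and ELL2 were called in every alternative but that without a block, 15 of 16 for MLLT1 and 16 of 17 for ELL2, where the other ELL2 probe set was an alternative chosen after seeing the data. Array set 2 alone and the removal of replicate 1 of either group come to the same fit. They were counted separately in these tallies, so the number of distinct checks is smaller.

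Signs turned only for small differences that were not called. ELL3 became -0.033 without control replicate 4 (highest on leaving out 1 array 0.073). PAF1 became 0.022 in array set 2 alone and without replicate 1 of either group (lowest -0.050). KMT2A became 0.034 without CDK9 siRNA replicate 3 and 0.020 without control replicate 4 (lowest -0.067). SIAH1 became 0.0091 when quantile normalized again, and ranged between -0.0504 and 0.0155 on leaving out 1 array. AFF1 over AFF3 became -0.032 in array set 2 alone and without replicate 1 of either group (highest 0.198). EAF1 over the dim EAF2 became -0.027 in array set 2 alone, and ranged between -0.062 and 0.083 on leaving out 1 array. ELL3 and EAF2 are dim, and were left out where dim genes were.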
